A study of Homo sapiens with 16 samples.

Results

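The comparison described here is the response of the T cell line Jurkat minus the response of the B cell line BJAB, gene by gene, after 4 hours of stimulation through antigen receptor pathways. It used 8 of the 16 RNA sequencing libraries of a study of 4 human immune cancer lines, chosen by their labels: 2 libraries each of untreated Jurkat, stimulated Jurkat, untreated BJAB and stimulated BJAB. All were labelled wild type. The Jurkat stimulus was an anti-CD3 antibody (5 µg/ml) plus PMA (100 ng/ml), a phorbol ester. The BJAB stimulus combined anti-IgM (10 µg/ml) and anti-CD40 (4 µg/ml) antibodies. The lines thus received different agents, and a difference between lines cannot be told apart from a difference between agents. No label says whether the 2 libraries of a group came from separate cultures, so the p-values measure the spread between libraries, which may be technical. The question was which genes respond in 1 lymphocyte line only, and which move in opposite directions.

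The T cell receptor signals through the CD3 chains and the kinases LCK and ZAP70 to calcineurin and NFAT, to protein kinase C and NF-kB, and to the RAS and MAP kinase pathway. PMA mimics diacylglycerol and activates protein kinase C and RAS directly, past the receptor. The B cell receptor signals through CD79A and CD79B to a similar set of pathways, and CD40, a receptor of the TNF family, adds NF-kB signalling through TRAF adaptors. In T cells this signalling is known to induce IL2, the IL-2 receptor and cytotoxic and TNF-family genes, and in B cells it is known to induce chemokines, co-stimulatory molecules and migration receptors.

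Levels are in TPM, transcripts per 1000000, which already corrects for transcript length. A response is the mean of log2(TPM + 1) in the 2 stimulated libraries minus that in the 2 controls, and the difference is the Jurkat response minus the BJAB response, with its standard error (SE). Responses and differences were tested with limma, and adjusted p means Benjamini-Hochberg adjustment over the 14398 genes tested. The libraries are bulk, so a change in every cell and a larger change in some cells cannot be told apart.

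The 8 libraries held 6268819 to 8170899 reads recovered from the TPM steps. All 10 T cell markers were above 1 TPM in every Jurkat library, and their summed level was 5474 to 7387 TPM in Jurkat against 88.2 to 104.5 TPM in BJAB. The 10 B cell markers summed to 139.8 to 189.2 TPM in Jurkat, most of it CD79A, and to 1420 to 5728 TPM in BJAB. The 10 monocytic and granulocytic markers summed to 1.84 to 3.74 TPM in Jurkat and to 52.2 to 91.2 TPM in BJAB. Most of the BJAB sum was CD33, at 29.4 to 84.3 TPM, with FCER1G at 4.05 to 16.9 TPM, LYZ at up to 4.73 TPM and ITGAM at up to 1.66 TPM, while CD14 and CSF1R were below 1 TPM in all 8 libraries. FCER1G and LYZ were highest in the first stimulated BJAB library. BJAB also held EPCAM, an epithelial marker, at 306 to 464 TPM. The part of these markers in the results was not tested. The first stimulated BJAB library stood apart. Across genes, the SD of the log2 difference within the pair was 0.958 for stimulated BJAB, against 0.365 to 0.407 in the other 3 groups. In that library the genes in the fifth with the highest transcript GC content had a median response of -1.06, against 0.04 in the fifth with the lowest, while the second stimulated BJAB library went from 0.00 to -0.18 and Jurkat from -0.01 to -0.04. ACTB, a structural gene, was at 8820 and 9170 TPM in the BJAB controls, at 1860 TPM in this library and at 7490 TPM in the other. Without it 7 of the 89 named genes whose response differed lost that call. The difference without it was 2.02 for NFATC2, -1.05 for NIP7 and -1.10 for WDR3. For the rest of the 7 it is given below, as wherever another passing difference described here moved by over 1.5 times on the linear scale. Differences that did not pass moved as well, among them CD79A (0.11 without this library), CD79B (1.45), EBP (-0.56), GAPDH (0.15) and ACTB (0.17). The median difference over all tested genes was 0.14 as deposited and 0.00 after median-of-ratios scaling. That scaling moved single differences by unlike amounts, RAG1 from -3.69 to -3.49, HSP90B1 from 1.61 to 1.33 and RGS16 from 2.97 to 2.55. HSP90B1 and RGS16 then did not pass (adjusted p = 0.103 and 0.0594).

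The response differed between the lines for 754 of the 14398 tested genes (5.24%). The Jurkat response was the higher for 541 of them (3.76%) and the BJAB response for 213 (1.48%). After quantile normalization the split was 483 and 327. In Jurkat itself 701 genes responded (4.87%), of which 435 rose (3.02%) and 266 fell (1.85%). In BJAB 921 responded (6.4%), of which 235 rose (1.63%) and 686 fell (4.76%). Without the first stimulated BJAB library 613 differences passed, 429 and 184 in the same order, and 556 of the 754 were among them with the same sign. Without the second one, which leaves the library that stands apart as the only stimulated BJAB sample, 2970 passed (2323 and 647). Without the second BJAB control 485 passed (360 and 125).

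**Figure D1:**
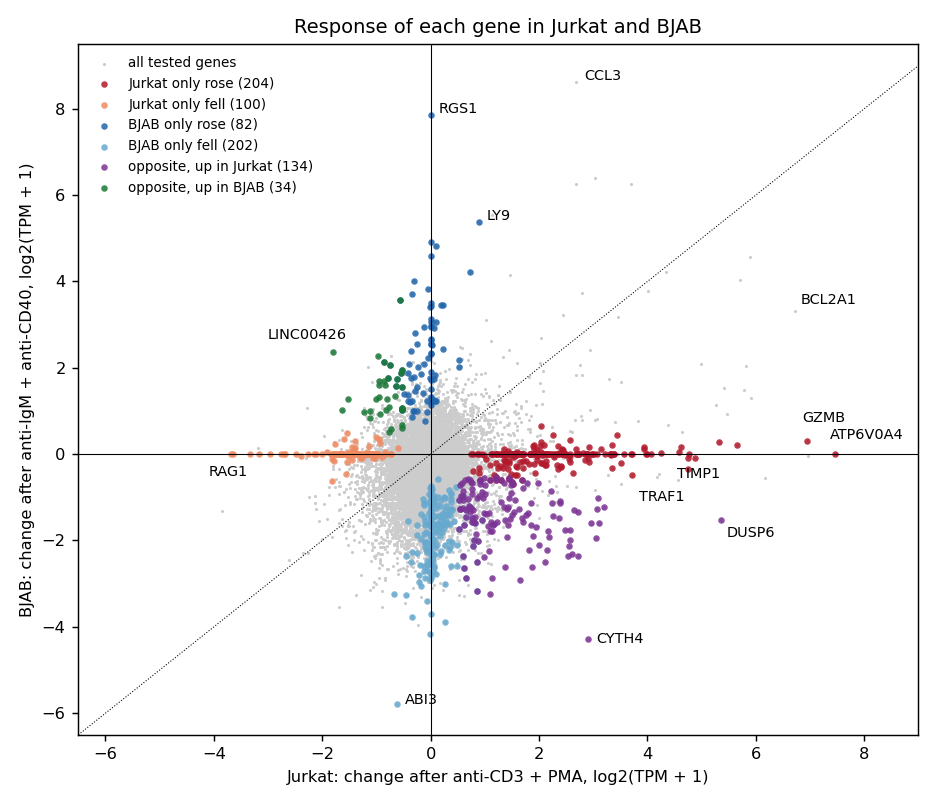
Response of each tested gene in BJAB (y axis) against its response in Jurkat (x axis), both as changes in log2(TPM + 1), 1 point per gene, with classes in colour and the dotted line marking equal responses. The 204 genes that rose in Jurkat only and the 202 that fell in BJAB only lie along the axes. The 134 genes higher in Jurkat and lower in BJAB fill the lower right. The 46 genes of the opposite classes that also belong to a one-line class are drawn in both colours, with the opposite class on top.

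A gene was called a Jurkat-only responder when the difference and the Jurkat response passed the test, the BJAB response did not, and both stimulated BJAB libraries lay within 1 log2 unit of their control mean. BJAB-only responders met the reverse. By this rule 304 genes responded in Jurkat only, of which 204 rose and 100 fell, and 284 responded in BJAB only, of which 82 rose and 202 fell. Most one-line responses were in genes that the other line did not detect, with a mean of at least 1 TPM in neither of its groups. This held for 173 of the 204 rises and 95 of the 100 falls in Jurkat. It held for 46 of the 82 rises and 120 of the 202 falls in BJAB. A gene at so low a level in a line usually meets the bound there, so the rule of the classes favours such genes. The share of undetected genes among all tested is not given here, so these counts describe the classes only. Only 31 genes rose in Jurkat alone although BJAB transcribed them, and 36 rose in BJAB alone although Jurkat transcribed them. Leaving out single libraries moved 3 of these counts by over 1.5 times. The falls in Jurkat only were 66 and 57 without the first and second BJAB control, and the rises in BJAB only were 49 without the first Jurkat control, 51 without the second BJAB control and 436 without the second stimulated BJAB library. The falls in BJAB only are described further down with their values. The bound of 1 log2 unit does not show that a gene had no response in the other line.

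Of 7 receptor genes with values, CD247 alone had a response that differed between the lines by the test. CD3D, CD3E and CD3G, chains of the CD3 complex that the Jurkat stimulus binds, were at 2100 to 2750, 244 to 393 and 335 to 553 TPM across the Jurkat libraries, and none of their differences passed (adjusted p of 0.985, 0.984 and 0.934). The BJAB stimulus binds IgM and CD40. IGHM, the heavy chain of IgM, was not analysed here. CD40 was listed at 0 in all Jurkat libraries and was at 39.2 and 43.2 TPM in the BJAB controls and 38 and 71.2 TPM after stimulation, with a difference of -0.33 ± 0.49 (SE, adjusted p = 0.796). CD79A was at 135 and 161 TPM in the Jurkat controls and 139 and 119 TPM after stimulation, and at 1510, 1730, 284 and 1300 TPM in BJAB, where the low value is the library that stands apart. Its difference did not pass (adjusted p = 0.548). CD79B fell in BJAB from 3000 and 3080 TPM to 321 and 1110 TPM and was at 0.816 to 1.09 TPM in Jurkat, but its difference did not pass (2.34 ± 0.80 SE, adjusted p = 0.146), and its BJAB response did not pass without the first stimulated library (adjusted p = 0.258). CD247 is the zeta signalling chain of the T cell receptor. It was at 251 and 277 TPM in the Jurkat controls and 267 and 247 TPM after stimulation, but went from 26.2 and 29.7 TPM to 7.93 and 8.98 TPM in BJAB. Its difference was 1.58 ± 0.30 (SE, adjusted p = 0.00976) and still passed without the first stimulated BJAB library (adjusted p = 0.0243), but did not pass after quantile normalization (1.03, adjusted p = 0.066).

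The genes with the largest rises in Jurkat alone were silent or nearly silent in BJAB. ATP6V0A4, which encodes part of the proton pump of vacuoles and lysosomes, had a listed value of 0 in both Jurkat controls and in all 4 BJAB libraries, and stood at 170 and 179 TPM in stimulated Jurkat. It was the only one of 23 tested proton pump genes with a differing response, where 5.24% of all tested genes differed. Its difference was 7.46 ± 0.19 (SE, adjusted p = 3.29e-09), a value that depends on the pseudocount because 3 of the 4 groups are at 0. GZMB, the killer cell protease granzyme B, went from 2.27 and 1.41 TPM to 329 and 364 TPM in Jurkat, while the BJAB libraries were at 0, 0, 0.522 and 0 TPM (difference 6.65 ± 0.40 SE, adjusted p = 4.61e-06). IL2RA, the alpha chain of the IL-2 receptor, went from 1.04 and 0 TPM to 54.6 and 57.4 TPM, with at most 0.319 TPM in any BJAB library (difference 5.02 ± 0.36 SE, adjusted p = 1.36e-05). SCG2, which encodes a secretory granule protein, rose to 52 and 60 TPM from 0 and 0.27 TPM. TRAF1, an adaptor of TNF-family receptors, rose to 59.1 and 58.3 TPM from 0.852 and 1.67 TPM and was listed at 0 in both BJAB libraries after CD40 stimulation. In each of these 5 genes the stimulated Jurkat libraries stood far above all other libraries.

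Other Jurkat-only rises were in genes that BJAB also expressed. TIMP1, an inhibitor of matrix metalloproteinases, went from 1.22 and 1.9 TPM to 67.3 and 67.4 TPM in Jurkat. In BJAB it was at 94 and 73.4 TPM in the controls and 74.1 and 80.6 TPM after stimulation, so stimulated Jurkat came to just below the level that BJAB held throughout (difference 4.86 ± 0.33 SE, adjusted p = 1.03e-05). LTB, the TNF-family cytokine lymphotoxin beta, ended above BJAB: from 1.64 and 1.6 TPM it rose to 50.3 and 76.5 TPM in Jurkat, against 5.19 to 6.84 TPM in all BJAB libraries (difference 4.53 ± 0.36 SE, adjusted p = 2.46e-05). EFHD2, a calcium-binding protein, went from 12.5 and 15.1 TPM to 118 and 90 TPM in Jurkat and stayed between 7.24 and 9 TPM in BJAB (difference 2.80 ± 0.33 SE, adjusted p = 0.000408). PTPRE, a receptor tyrosine phosphatase, went from 6.68 and 5.67 TPM to 34.2 and 36.6 TPM in Jurkat and was at 4.41, 3.02, 3.04 and 2.34 TPM in BJAB (difference 2.69, adjusted p = 0.00399). RGS16, which dampens G-protein signalling, is less certain: its BJAB controls were at 7.45 and 1.94 TPM, and its difference of 2.97 (adjusted p = 0.0133) passed in 11 of 19 alternative analyses.

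T cell activation genes made up the group with the most one-sided response. Of its 29 tested members 17 had a higher response in Jurkat and none in BJAB, against 3.76% and 1.48% of all tested genes, and 25 rose in Jurkat against 2 in BJAB (3.02% and 1.63% of all tested genes). This and the other lists were written with earlier results of these data known, so their directions are not independent evidence. Its median response was 2.35 in Jurkat and 0.00 in BJAB, against -0.03 and -0.14 for all tested genes. Beside GZMB and IL2RA the 17 included IL2, the T cell growth factor, listed at 0 in the Jurkat controls and all BJAB libraries and at 8.25 and 6.01 TPM in stimulated Jurkat. The inhibitory receptor PDCD1 rose from 1.45 and 0.658 TPM to 29.6 and 30.4 TPM in Jurkat, and the co-stimulatory receptor TNFRSF4 (OX40) from 9.58 and 10.1 TPM to 70.2 and 92.8 TPM. Both were at or below 0.255 TPM in every BJAB library. IL2, PDCD1 and TNFRSF4 were singled out after their values were seen. IL21R, the IL-21 receptor, went from 0.328 and 0.75 TPM to 28.3 and 24.9 TPM in Jurkat, above the 12.3 and 17.1 TPM of untreated BJAB. In stimulated BJAB it was at 3.97 and 22.4 TPM (difference 4.70 ± 0.76 SE, adjusted p = 0.00338, and 3.58 without the first of these libraries). Among 15 tested granule genes GZMB and perforin (PRF1) passed, against 5.24% of all tested genes. PRF1 went from 11 and 14 TPM to 29.1 and 32.3 TPM in Jurkat and was at most 0.27 TPM in BJAB (difference 1.57, adjusted p = 0.00239).

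Secreted and membrane-bound cytokines were the next most one-sided group. Of 28 tested members 13 were higher in the Jurkat response and 2 in the BJAB response (3.76% and 1.48% of all tested genes). These counts were 12 and 1 without the first stimulated BJAB library. TNFSF10, the death ligand TRAIL, went from 7.54 and 5.67 TPM to 63.5 and 63.2 TPM in Jurkat and from 1.12 and 0.923 TPM to 0 and 0 TPM in BJAB (difference 4.11 ± 0.40 SE, adjusted p = 0.000113). FASLG, the ligand of the death receptor FAS, was listed at 0 in every library but stimulated Jurkat, where it was at 7.1 and 11.4 TPM. IL16, a chemoattractant for CD4 T cells, rose from 3.5 and 5.66 TPM to 25.1 and 29.9 TPM in Jurkat and fell from 2.66 and 2.34 TPM to 0.184 and 0.323 TPM in BJAB (difference 3.86, adjusted p = 0.000491), though the BJAB response did not pass without the first stimulated library (-1.40, adjusted p = 0.13). IL10, an anti-inflammatory cytokine, ran the other way. It went from 29.6 and 24.5 TPM to 476 and 562 TPM in BJAB and from 0.342 and 0.213 TPM to 1.1 and 1.1 TPM in Jurkat (difference -3.49 ± 0.43 SE, adjusted p = 0.000525). Because the Jurkat levels are so low, this difference did not pass with a pseudocount of 0.1 (-2.57, adjusted p = 0.416) or by voom on recovered reads (-2.58, adjusted p = 0.187).

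Chemokines split between the lines. CXCL3, a neutrophil chemoattractant, rose from 4.1 and 3.01 TPM to 54.8 and 63.1 TPM in Jurkat and was listed at 0 in all BJAB libraries (difference 3.72 ± 0.39 SE, adjusted p = 0.000163). CCL1, a ligand of CCR8, rose in Jurkat from 7.97 and 3.51 TPM to 42.8 and 40.3 TPM and was also listed at 0 in BJAB. CCL3 and CCL4, which attract monocytes and T cells, rose in both lines and more in BJAB. CCL3 reached 615 and 350 TPM in BJAB and 4.89 and 6.02 TPM in Jurkat, from at most 0.395 TPM in any control (difference -5.94 ± 0.74 SE, adjusted p = 0.000612). CCL4 reached 83 and 68.3 TPM in BJAB and 17.5 and 8.08 TPM in Jurkat, from 0 in all controls (adjusted p = 0.0124), but its difference did not pass without the second BJAB control (adjusted p = 0.0519) or the first Jurkat control (adjusted p = 0.0517). CCL3 and CCL4 have close copies in the genome, so their levels are uncertain where reads could be assigned to either copy.

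Promoter sequence is shown for the Jurkat-only genes GZMB and CXCL3, because they were the only named genes in whose promoter window a searched motif was found. Each window is the 250 bases before the RefSeq transcription start (GRCh38.p14), which was available as a single window for 54 of 104 named genes. The motifs, chosen after the data were seen and searched on both strands, were AP-1 (TGACTCA), CRE (TGACGTCA), kappaB (in the form capitalised in CXCL3, with any base between GGGA and TTTCC), octamer (ATGCAAAT) and EGR (GCGTGGGCG). Of 35116 windows of this length 4.2% held the AP-1 motif, 1.65% CRE, 0.527% kappaB, 1.63% octamer and 0.72% EGR. A match describes letters and does not show binding. Capitals mark the AP-1 match in GZMB (chr14:24634191-24634440, minus strand, the match on the opposite strand) and the kappaB match in CXCL3 (chr4:74038690-74038939, minus strand).
GZMB: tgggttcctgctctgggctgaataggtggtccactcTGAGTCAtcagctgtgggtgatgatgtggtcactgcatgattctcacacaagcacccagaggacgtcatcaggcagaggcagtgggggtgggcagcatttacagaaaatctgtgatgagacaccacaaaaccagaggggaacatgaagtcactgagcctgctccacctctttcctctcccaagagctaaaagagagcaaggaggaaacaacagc
CXCL3: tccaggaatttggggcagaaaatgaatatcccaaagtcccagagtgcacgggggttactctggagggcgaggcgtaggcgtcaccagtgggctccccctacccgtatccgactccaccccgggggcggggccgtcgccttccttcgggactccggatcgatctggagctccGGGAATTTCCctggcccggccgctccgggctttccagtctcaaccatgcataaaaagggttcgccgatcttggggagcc

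The 8 largest falls in Jurkat only included genes of early T cell development, and all 8 were in genes that BJAB listed at 0. RAG1 and RAG2, which together form the recombinase that assembles antigen receptor genes, fell from 17.6 and 16.3 TPM to 0.637 and 0.182 TPM and from 43.7 and 34.8 TPM to 1.8 and 2.66 TPM (differences -3.69 ± 0.24 and -3.64 ± 0.24 SE, adjusted p = 9.12e-06 and 9.2e-06). LMO1, a transcriptional cofactor known as an oncogene of T cell leukaemia, fell from 20.7 and 19.8 TPM to 2.02 and 1.47 TPM (difference -2.96, adjusted p = 0.000284). The long non-coding RNAs LINC01882, LINC01225 and LINC00977 were also in this group. LINC01882 went from 9.7 and 8.47 TPM to 0 and 0 TPM, and LINC00977 from 112 and 99.1 TPM to 15.6 and 15.1 TPM. C9, a terminal complement component, fell from 18.2 and 16 TPM to 1.06 and 2.43 TPM, and PDGFC, a growth factor, from 36 and 21.4 TPM to 3.32 and 3.61 TPM. All these genes were listed at 0 in each of the 4 BJAB libraries, so BJAB gave no level from which a fall could be seen. Of the 43 tested genes of early lymphocyte development 4 had a higher response in Jurkat and 8 in BJAB (3.76% and 1.48% of all tested genes). In Jurkat 9 fell (1.85% of all tested genes). Without the first stimulated BJAB library the differing members were 2 and 7, and by voom on recovered reads 3 and 4. By voom the differences of LMO1, PDGFC, LINC00977 and LINC01225 did not pass, at adjusted p of 0.058 to 0.141. Those with the lower Jurkat response included BCL11B, a regulator of T cell commitment, at 61.7 and 49 TPM before and 23.5 and 17.2 TPM after stimulation, and IKZF2 (Helios), at 19.1 and 17.8 TPM before and 5.7 and 2.48 TPM after, both singled out after their values were seen.

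**Figure D2:**
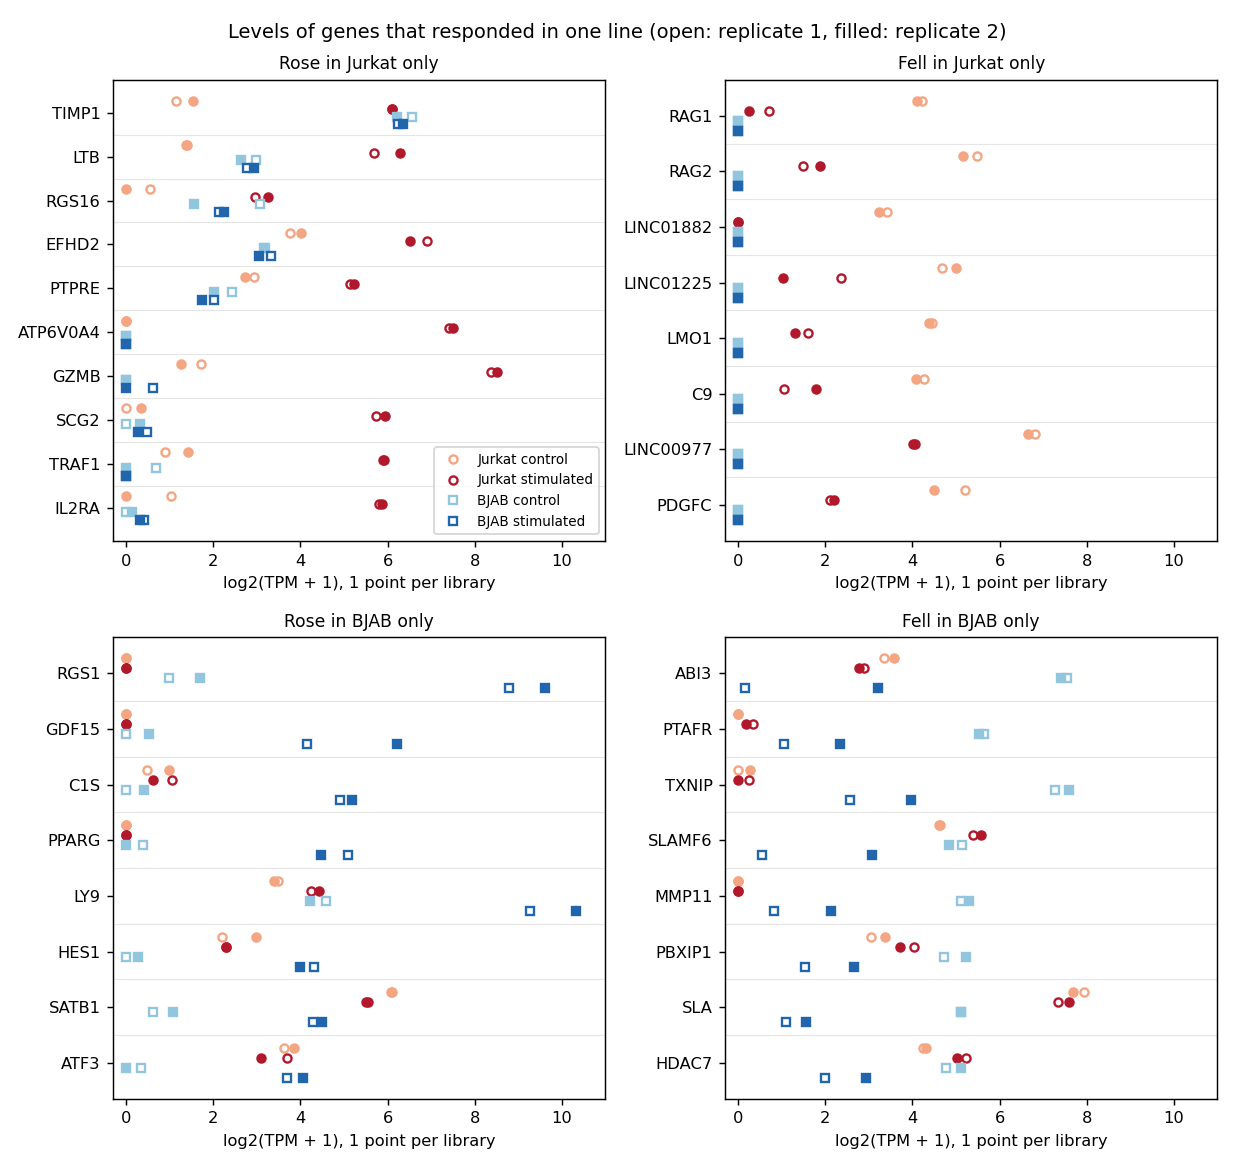
Levels of the named one-line responders as log2(TPM + 1), 1 point per library, with Jurkat as circles, BJAB as squares, lighter colours for controls, and open and filled symbols for replicates 1 and 2. In the Jurkat panels the BJAB squares overlap or lie at 0, as for RAG1, and in the BJAB panels the open square of the first stimulated library is often the lowest, as for ABI3.

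Within T cell receptor signalling, 6 of 29 tested genes had a higher response in Jurkat and 1 in BJAB (3.76% and 1.48% of all tested genes). By voom on recovered reads the counts were 3 and 0. SH2D2A, a T cell-specific adaptor, rose from 10.3 and 9.97 TPM to 113 and 111 TPM in Jurkat and was at most 0.681 TPM in BJAB (difference 3.66, adjusted p = 0.0102). That difference did not pass without the second BJAB control (3.41, adjusted p = 0.0555) or by voom on recovered reads (4.98, adjusted p = 0.111). LAT, the membrane scaffold of the receptor, rose from 290 and 274 TPM to 1450 and 1590 TPM in Jurkat and was at 0.556 to 1.53 TPM in BJAB (difference 2.29, adjusted p = 0.00603). It was singled out after its values were seen. RASGRP1, the diacylglycerol-dependent activator of RAS, was the exception. It fell from 42 and 35.3 TPM to 5.95 and 7.15 TPM in Jurkat and was at 0.68 to 1.25 TPM in BJAB (difference -2.35 ± 0.31 SE, adjusted p = 0.000843, but 0.109 by voom).

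The largest rises in BJAB alone were in RGS1 and LY9. RGS1, which limits chemokine receptor signalling, rose from 0.975 and 2.24 TPM to 441 and 777 TPM in BJAB and was listed at 0 in all Jurkat libraries (difference -7.86 ± 0.43 SE, adjusted p = 2.63e-06). LY9, a receptor of the SLAM family, rose from 23.2 and 17.6 TPM to 611 and 1280 TPM in BJAB and was at 10.2 and 9.58 TPM in untreated and 17.8 and 20.6 TPM in stimulated Jurkat (difference -4.49 ± 0.48 SE, adjusted p = 2e-04). The Jurkat libraries of LY9 did not overlap, but their response of 0.89 did not pass (adjusted p = 0.245). RGS2, a relative of RGS1, reached the highest level of this group: it went from 61.3 and 62.8 TPM to 2320 and 3680 TPM in BJAB and from 4.95 and 6.94 TPM to 16.4 and 12.2 TPM in Jurkat (difference -4.39 ± 0.67 SE, adjusted p = 0.00228). Its Jurkat response exceeded the bound of 1 and did not pass, so it belongs to no class.

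The other named BJAB-only rises included regulators of transcription. PPARG, a nuclear receptor, rose from 0.302 and 0 TPM to 33.1 and 21.1 TPM in BJAB and was listed at 0 in Jurkat (difference -4.59, adjusted p = 5.53e-05). HES1, a repressor induced by Notch signalling, rose from 0 and 0.215 TPM to 18.8 and 14.9 TPM in BJAB, while Jurkat was at 3.62 and 6.89 TPM before and 3.89 and 3.9 TPM after (difference -4.31, adjusted p = 9e-04). ATF3, a stress-induced factor, rose from 0.269 and 0 TPM to 12 and 15.7 TPM in BJAB, up to the level Jurkat already had, with 11.4 and 13.5 TPM before and 11.9 and 7.53 TPM after stimulation (difference -4.06, adjusted p = 0.000369). For both HES1 and ATF3, untreated Jurkat lay above untreated BJAB and stimulated BJAB lay above stimulated Jurkat. For ATF3 the latter was narrow, at 12 against 11.9 TPM in the nearest libraries. Of the 36 BJAB-only rises that Jurkat detected, 15 showed this reversal of order, against 225 of all 14398 tested genes. Both counts ask for no overlap between the lines before or after, and the rule of the class favours the reversal. The remaining named rises were secreted proteins. GDF15, a TGF-beta family cytokine, rose from 0 and 0.449 TPM to 16.7 and 73.6 TPM in BJAB (difference -4.91, and -5.95 without the first stimulated library). C1S, a complement protease, rose from 0 and 0.334 TPM to 28.9 and 35.3 TPM, and neither gene exceeded 1.06 TPM in Jurkat.

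MS4A1 and HLA-DMB were also in this class, while most B cell markers went the other way. The 10 B cell markers summed to 5404 and 5728 TPM in the BJAB controls and to 1420 and 3734 TPM after stimulation, and CD79A, CD79B, PAX5, EBF1 and BLK were lower in both stimulated libraries than in either control. MS4A1, the B cell antigen CD20, rose from 270 and 267 TPM to 574 and 511 TPM in BJAB and was at most 0.31 TPM in Jurkat (difference -1.33 ± 0.25 SE, adjusted p = 0.0084). HLA-DMB, which loads peptides onto MHC class II, rose from 2.05 and 1.8 TPM to 29.6 and 30.6 TPM in BJAB and was at most 0.0747 TPM in Jurkat (difference -3.43 ± 0.21 SE, adjusted p = 5.1e-06). It was the only one of 14 tested MHC class II genes with a differing response, where 5.24% of all tested genes differed. Without the first stimulated BJAB library it was not the only one. Of these 14 genes 1 rose and 1 fell in BJAB (1.63% and 4.76% of all tested genes). Their median BJAB response was -0.21, or -0.09 in the second stimulated library alone. The stimulated BJAB libraries of MS4A1 and HLA-DMB lay close together. Of 30 tested genes of B cell receptor and CD40 signalling MS4A1 and TRAF1 differed, in opposite directions, a share near the 5.24% of all tested genes. Of 32 B cell activation and germinal centre genes 5 had a higher response in Jurkat and 4 in BJAB (3.76% and 1.48% of all tested genes). Without the first stimulated BJAB library these were 1 and 4, and the median difference of this list, 0.49 as deposited, was -0.04 after quantile normalization.

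Falls in BJAB alone were mostly larger in the first stimulated BJAB library. That library was the lower of the pair in 154 of the 202 genes, against 7854 of all 14398, and the median transcript GC content of these genes was 53.5% against 48.5% for all tested genes. The part of GC content in the result was not tested. Without this library 144 genes were in the class. Leaving out any of 6 other libraries moved the count by over 1.5 times, to 120 and 124 without the first and second Jurkat control, 129 and 125 without the first and second stimulated Jurkat library, 111 without the second BJAB control and 1724 without the second stimulated BJAB library.

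Several named falls were nevertheless large in both stimulated BJAB libraries. PTAFR, the receptor for platelet-activating factor, fell from 48.8 and 45.3 TPM to 1.07 and 4.04 TPM in BJAB and was at most 0.264 TPM in Jurkat (difference 4.15 ± 0.49 SE, adjusted p = 0.000455, and 3.51 without the first library, adjusted p = 0.000344). SLA, an adaptor that dampens antigen receptor signalling, fell from 33.4 and 33.4 TPM to 1.13 and 1.94 TPM in BJAB, while Jurkat was at 245 and 205 TPM before and 160 and 193 TPM after (difference 3.43 ± 0.42 SE, adjusted p = 0.000514, and 3.20 without the first library, adjusted p = 0.00176). MMP11, a matrix metalloproteinase, fell from 33.4 and 38.1 TPM to 0.783 and 3.41 TPM and was listed at 0 in Jurkat (difference 3.71, and 3.06 without the first library). ABI3, a regulator of actin assembly, went from 186 and 169 TPM to 0.121 and 8.3 TPM in BJAB and was between 5.82 and 10.9 TPM in all Jurkat libraries. Its difference was 5.16 ± 1.14 (SE, adjusted p = 0.0219) and 3.63 without the first library (adjusted p = 0.0303). It did not pass when any 1 of the 4 controls or of the 2 stimulated Jurkat libraries was left out, at adjusted p of 0.0692 to 0.0869. TXNIP, which inhibits thioredoxin and glucose uptake, fell from 153 and 191 TPM to 4.94 and 14.6 TPM in BJAB and was at most 0.216 TPM in Jurkat. Its difference of 4.14 (adjusted p = 0.0137) became 3.45 without the first library (adjusted p = 0.052), and it also did not pass without the second BJAB control, the first Jurkat control or the first stimulated Jurkat library, at adjusted p of 0.0624 to 0.0653.

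Genes moved in opposite directions when, with the difference called, both stimulated libraries lay beyond both controls in each line, on opposite sides, with a mean change of at least 0.5 in each. This held for 168 genes, of which 134 were higher in stimulated Jurkat and lower in stimulated BJAB and 34 the reverse. In 32 of them, 26 and 6, the response of each line passed the test on its own. The lower of the stimulated BJAB libraries was the first in 108 of the 134 genes, and the median GC content of the 134 was 53.7%. The BJAB response of the 134 had a median of -1.69 in the first library and -0.96 in the second. Without the first library, 79 of the 134 and 26 of the 34 were again in their class. In the second library alone the level was lower by at least 0.5 in 112 of the 134. The class asks for lower levels in both stimulated BJAB libraries, so its rule sets part of this count, which is no independent evidence. Counts of the class up in Jurkat were 72 and 80 without the first and second Jurkat control, 75 without the first stimulated Jurkat library, 85 without the second BJAB control and 417 without the second stimulated BJAB library. Counts of the class up in BJAB were 19 without the first Jurkat control, 21 without the second stimulated Jurkat library, 18 without the second BJAB control and 91 without the second stimulated BJAB library.

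**Figure D3:**
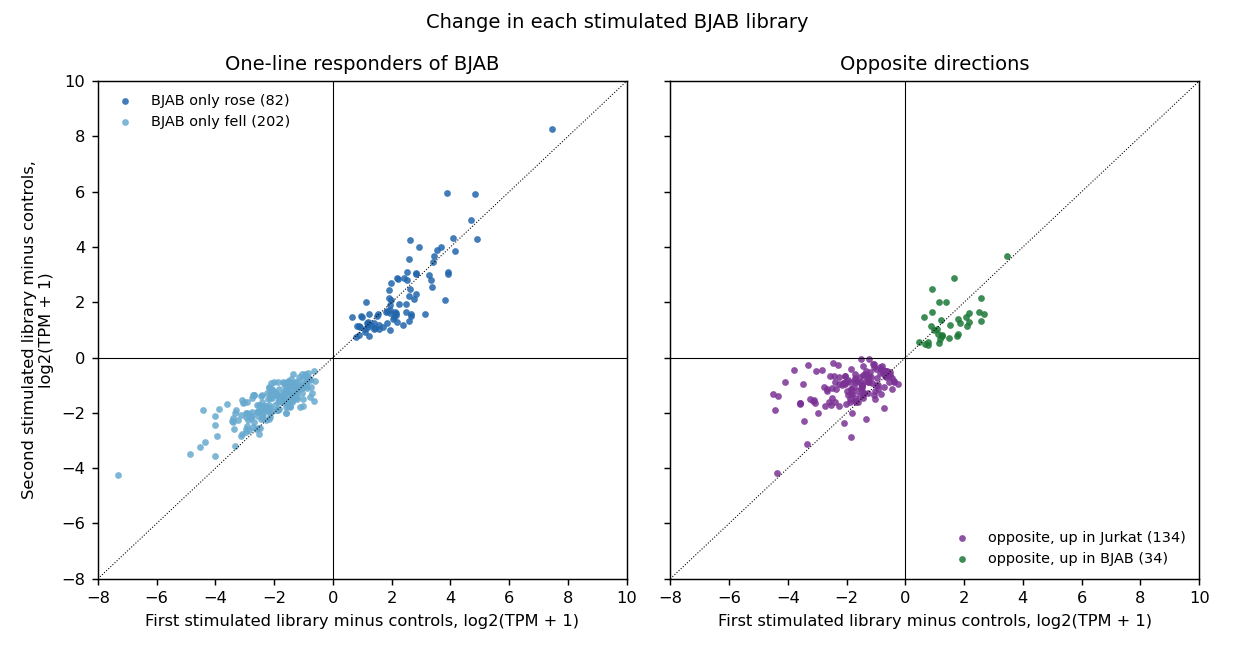
Change of each gene in the second stimulated BJAB library (y axis) against the first (x axis), each minus the mean of the 2 BJAB controls in log2(TPM + 1), 1 point per gene, with the dotted line marking equality. Falls lie mostly above the line, that is, larger in the first library (154 of 202 BJAB-only falls and 108 of 134 genes up in Jurkat and down in BJAB), while rises scatter on both sides.

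CYTH4, an activator of ARF GTPases, showed the largest difference among genes with opposite directions and was close in both stimulated libraries of each line. It rose from 1.21 and 0.753 TPM to 16.9 and 11.2 TPM in Jurkat and fell from 25.7 and 27 TPM to 0.317 and 0.501 TPM in BJAB (difference 7.19 ± 0.56 SE, adjusted p = 2.3e-05, and 7.10 without the first stimulated BJAB library, adjusted p = 0.000189). Stimulation thus turned the order of the lines for this gene. The same turn, with no overlap before or after, was seen in 55 of the 134 genes, against 379 of all 14398 tested. The rule of the class favours it. POU2AF1, the B cell coactivator of octamer-binding factors, rose from 5.23 and 4.81 TPM to 43.3 and 34 TPM in Jurkat and fell from 113 and 139 TPM to 13.4 and 41.6 TPM in BJAB (difference 5.06 ± 0.55 SE, adjusted p = 0.000244, and 4.27 without the first stimulated BJAB library). ID2, an inhibitor of E proteins, rose from 6.94 and 3.82 TPM to 45 and 59.9 TPM in Jurkat and fell from 226 and 212 TPM to 44.7 and 114 TPM in BJAB, a response that did not pass without the first library (-0.94, adjusted p = 0.275), while the difference did (4.04, adjusted p = 0.000686).

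Feedback regulators were among these genes. DUSP6, the phosphatase of ERK, rose from 1.64 and 0.716 TPM to 93.5 and 79.5 TPM in Jurkat and was at 19.2 and 17.6 TPM in untreated and 3.62 and 8.89 TPM in stimulated BJAB (difference 6.88 ± 0.72 SE, adjusted p = 0.000175). Its BJAB response of -1.52 did not pass on its own (adjusted p = 0.103), and the difference was 6.33 without the first stimulated library. SOCS1, a suppressor of cytokine signalling, rose from 0.916 and 1.43 TPM to 11.3 and 12.8 TPM in Jurkat and fell from 11 and 5.17 TPM to 0 and 1.99 TPM in BJAB (difference 4.91 ± 0.80 SE, adjusted p = 0.00351). TPST2, an enzyme that sulphates tyrosines of secreted and membrane proteins, rose from 37.8 and 38.3 TPM to 298 and 351 TPM in Jurkat and fell from 28.7 and 26.5 TPM to 3.46 and 11.4 TPM in BJAB (difference 4.99, adjusted p = 0.000618). RGCC, a cell cycle regulator, rose from 31.2 and 45.1 TPM to 177 and 282 TPM in Jurkat and fell in BJAB to 92.7 and 44.7 TPM from controls that differed widely, at 606 and 185 TPM (difference 4.90 ± 0.80 SE, adjusted p = 0.00346). Without the first stimulated BJAB library the BJAB responses of SOCS1 and TPST2 did not pass (adjusted p = 0.293 and 0.162) and their differences were 4.12 and 4.25, whereas that of RGCC did (adjusted p = 0.0452).

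For SLC7A5 and CD82 the low mean of stimulated BJAB rested mainly on 1 library. SLC7A5, a transporter of large amino acids, was at 77.1 and 76.5 TPM in untreated and 500 and 414 TPM in stimulated Jurkat, and at 61.5, 46.8, 2.92 and 38.7 TPM in BJAB. The SE of its response, 0.77 in each line, is pooled over groups and so takes in the split BJAB pair. Neither line's response passed on its own (adjusted p = 0.102 and 0.123), and the difference went from 4.68 (adjusted p = 0.0286) to 3.01 without the first stimulated BJAB library (adjusted p = 0.00482). CD82, a tetraspanin of activated T cells, was at 252 and 251 TPM in untreated and 1030 and 1150 TPM in stimulated Jurkat, and at 72.2, 60.4, 2.88 and 35.2 TPM in BJAB (difference 4.61, adjusted p = 0.0216). Without that library its BJAB response went from -2.50 to -0.89, and the difference, now 3.0, still passed (adjusted p = 0.00061). Leaving out any of the controls or of the stimulated Jurkat libraries instead ended the calls of both genes, at adjusted p of 0.0705 to 0.111. BCL6, the master regulator of germinal centre B cells, was at 3.43 and 3.06 TPM in untreated and 21.4 and 23.7 TPM in stimulated Jurkat, and at 502, 450, 57.4 and 336 TPM in BJAB. Its difference of 4.24 (adjusted p = 0.0375) was 2.97 without the first stimulated BJAB library. Among the fits with 1 of the 8 compared libraries left out, the difference passed only without the second stimulated BJAB library. Of all 19 alternative analyses it passed in 8.

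**Figure D4:**
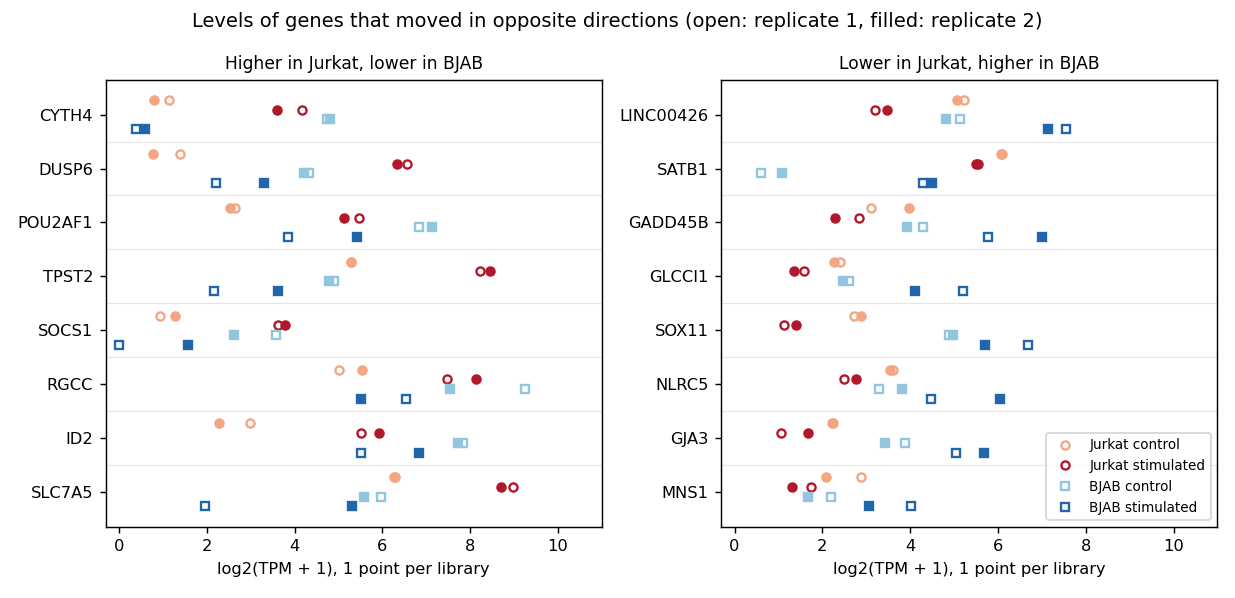
Levels of the named genes with opposite directions as log2(TPM + 1), 1 point per library, with Jurkat as circles, BJAB as squares, lighter colours for controls, and open and filled symbols for replicates 1 and 2. In the left panel Jurkat moves right and BJAB left, so that CYTH4 changes order between the lines, and in the right panel the directions are reversed.

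In the reverse class, LINC00426, a long non-coding RNA, fell from 36.4 and 32.6 TPM to 8.19 and 10.1 TPM in Jurkat and rose from 34.4 and 27 TPM to 185 and 139 TPM in BJAB (difference -4.17 ± 0.33 SE, adjusted p = 2.33e-05). The untreated lines were alike in level, and all 4 stimulated libraries lay outside the range of the controls. SOX11, a developmental transcription factor, fell from 5.55 and 6.33 TPM to 1.2 and 1.65 TPM in Jurkat and rose from 28.7 and 30.3 TPM to 102 and 51.2 TPM in BJAB (difference -2.79 ± 0.39 SE, adjusted p = 0.00134), a BJAB response that did not pass without the first stimulated library (0.78, adjusted p = 0.08). SATB1, a chromatin organiser of T cells, rose from 0.522 and 1.11 TPM to 18.6 and 21.7 TPM in BJAB and was at 67.2 and 66.2 TPM in untreated and 45.5 and 44.5 TPM in stimulated Jurkat (difference -4.12, adjusted p = 0.0013). The Jurkat response of SATB1, -0.56, did not pass (adjusted p = 0.761), so it also counts as a BJAB-only rise. GADD45B, a stress-response gene, rose from 18.6 and 14.2 TPM to 53.9 and 127 TPM in BJAB and was at 7.69 and 14.6 TPM before and 6.1 and 3.92 TPM after stimulation in Jurkat (difference -3.26, adjusted p = 0.00632, and -3.87 without the first stimulated BJAB library). NLRC5, the transactivator of MHC class I genes, was the least certain: its difference of -2.65 (adjusted p = 0.0491) did not pass when any library other than a stimulated BJAB library was left out, at adjusted p of 0.0923 to 0.169, and was -3.43 without the first stimulated BJAB library.

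A further 13 genes rose in both lines by different amounts, and none fell in both. The Jurkat rise was the larger for BCL2A1, APOBEC3B, ARAP2, DUSP5, GEM, NR4A3 and PHLDA1, and the BJAB rise for CCL3, CCL4, CCR7, CGA, KLF6 and SLAMF7. BCL2A1, an anti-apoptotic BCL2 relative, went from 1.48 and 0.736 TPM to 253 and 191 TPM in Jurkat and from 24.3 and 29.7 TPM to 321 and 239 TPM in BJAB. The stimulated lines thus overlapped in level although their controls were far apart (difference 3.42 ± 0.43 SE, adjusted p = 0.000612). CCR7, the lymph node homing receptor, went from 3.51 and 2.83 TPM to 23.3 and 28.4 TPM in Jurkat and from 1.01 and 0.233 TPM to 96.7 and 145 TPM in BJAB (difference -3.56 ± 0.45 SE, adjusted p = 0.000615). SLAMF7, singled out after its values were seen, went from 0.664 and 0 TPM to 10.6 and 8.58 TPM in Jurkat and from 10 and 10.4 TPM to 767 and 1170 TPM in BJAB, the same direction as its relative LY9. SLAMF6, of the same family, fell in BJAB from 34 and 27.7 TPM to 0.467 and 7.46 TPM and was at 23.5 and 23.8 TPM before and 40.8 and 47 TPM after in Jurkat (difference 4.03 ± 0.81 SE, adjusted p = 0.0131, and 2.77 without the first stimulated BJAB library). The difference of SLAMF6 did not pass without the first BJAB control, either Jurkat control or the second stimulated Jurkat library, at adjusted p of 0.0504 to 0.0598.

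Of 24 NF-kB subunits, inhibitors and feedback genes 5 had a higher response in Jurkat and none in BJAB (3.76% and 1.48% of all tested genes). In Jurkat 10 rose and in BJAB 5 (3.02% and 1.63% of all tested genes). The differing members were 5 and 1 without the first stimulated BJAB library. RELB, the subunit of the CD40-linked alternative pathway, rose from 1.1 and 0.611 TPM to 41.4 and 44.1 TPM in Jurkat. In BJAB it was at 16.2 and 15.1 TPM in the controls, 3.04 TPM in the first and 28.7 TPM in the second stimulated library, which lie on opposite sides of the controls (difference 5.18 ± 0.96 SE, adjusted p = 0.00762, and 3.74 without the first library). NFKB2, the other subunit of that pathway, went from 0.645 and 1.07 TPM to 11.1 and 10.8 TPM in Jurkat and was at 8.89, 3.24, 1.78 and 4.3 TPM in BJAB. Its difference of 3.45 (adjusted p = 0.0145) did not pass without the first stimulated BJAB library (2.98, adjusted p = 0.0633), nor without the first BJAB control, the first Jurkat control or either stimulated Jurkat library, at adjusted p of 0.0578 to 0.0705.

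Immediate-early genes differed in 9 of 30 tested members, 6 with the higher response in Jurkat and 3 in BJAB (3.76% and 1.48% of all tested genes). In Jurkat 15 rose and in BJAB 7 (3.02% and 1.63% of all tested genes). By voom on recovered reads the differing members were 2 and 3. IER3, a stress-induced survival gene, rose from 1.87 and 1.68 TPM to 99.1 and 65.5 TPM in Jurkat and was at 0.398 to 0.802 TPM in BJAB (difference 4.97 ± 0.36 SE, adjusted p = 1.36e-05). NR4A1, an orphan nuclear receptor induced by antigen receptors, rose from 2.54 and 2.82 TPM to 151 and 171 TPM in Jurkat. In BJAB it was at 6.42 and 10.6 TPM before and 7.47 and 36.5 TPM after stimulation, a difference of 4.52 ± 0.79 (SE, adjusted p = 0.00544). Without the first stimulated library its BJAB response of 2.02 passed (adjusted p = 0.0262) and the difference was 3.45. EGR2 rose from 0.176 and 0.22 TPM to 29.7 and 28 TPM in Jurkat and was at 0, 0, 0 and 1.02 TPM in BJAB (difference 4.13, adjusted p = 0.000378, but 0.0681 by voom). Of 21 MAP kinase feedback genes 5 had a higher response in Jurkat and 1 in BJAB (3.76% and 1.48% of all tested genes). Beside DUSP6, PHLDA1 rose from 0.989 and 0.47 TPM to 94 and 93.5 TPM in Jurkat and from 0.463 and 0.319 TPM to 2.38 and 3.46 TPM in BJAB. DUSP5, another ERK phosphatase, rose from 0.22 and 0.549 TPM to 69.9 and 84.4 TPM in Jurkat and from 12.6 and 6.96 TPM to 60.1 and 29.2 TPM in BJAB (difference 3.77 ± 0.51 SE, adjusted p = 0.00111). Thus 2 ERK phosphatases differed between the lines in different ways: DUSP5 rose in both, and DUSP6 was lower in both stimulated BJAB libraries than in the controls.

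Of 27 BCL2 family and death receptor genes BCL2A1, FASLG, MCL1 and CASP8 had a higher response in Jurkat and BCL2 in BJAB, 4 and 1 against 3.76% and 1.48% of all tested genes. These counts were 3 and 1 without the first stimulated BJAB library. CASP8, the initiator caspase of death receptors, fell in BJAB from 13.9 and 23 TPM to 6.47 and 7.33 TPM. In Jurkat it was at 37.9, 32.7, 44 and 49 TPM. Its difference of 1.65 (adjusted p = 0.0238) did not pass without that library (1.57), and passed in 8 of 19 alternative analyses. Neither median-of-ratios scaling (1.40, adjusted p = 0.109) nor quantile normalization (1.11, adjusted p = 0.245) kept the call. BCL2, singled out after its values were seen, was at 4.71, 3.78, 2.98 and 2.31 TPM in Jurkat and at 0.103, 0, 1.24 and 1.14 TPM in BJAB, all low levels (difference -1.58, adjusted p = 0.00997). Of 7 CDK inhibitors CDKN1A differed, against 5.24% of all tested genes. CDKN1A, the cell cycle inhibitor p21, rose from 2.64 and 0.922 TPM to 196 and 183 TPM in Jurkat and was at 5.57 and 3.69 TPM in untreated and 0.874 and 6.54 TPM in stimulated BJAB (difference 6.73 ± 1.04 SE, adjusted p = 0.00259, and 5.73 without the first stimulated library). MCL1, a BCL2 relative, rose from 29.2 and 25.4 TPM to 112 and 101 TPM in Jurkat and was at 163, 85.5, 86.2 and 87.2 TPM in BJAB. Its difference of 2.37 (adjusted p = 0.0127) did not pass without the first BJAB control (1.90, adjusted p = 0.0506), the second Jurkat control (adjusted p = 0.0562) or the first stimulated Jurkat library (adjusted p = 0.0554). HSP90B1, a chaperone of the endoplasmic reticulum, rose from 358 and 351 TPM to 887 and 963 TPM in Jurkat and was at 580, 615, 505 and 511 TPM in BJAB (difference 1.61 ± 0.20 SE, adjusted p = 0.000635). It was 1 of 27 stress response genes to differ, against 5.24% of all tested genes, and 2 differed without the first stimulated BJAB library. HSP90B1 did not pass after median-of-ratios scaling (1.33, adjusted p = 0.103).

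Interferon-stimulated genes had a higher Jurkat response in 3 of 37 tested members, SOCS1, IRF9 and OASL, against 3.76% of all tested genes, and in 5 without the first stimulated BJAB library. In BJAB 8 fell and in Jurkat 3 (4.76% and 1.85% of all tested genes). IRF9, the DNA-binding part of the interferon-activated complex, fell from 77 and 73.2 TPM to 10.4 and 21.7 TPM in BJAB and was at 8.79 and 7.86 TPM before and 16.6 and 21.1 TPM after in Jurkat (difference 3.32 ± 0.60 SE, adjusted p = 0.00622). Its BJAB response did not pass without the first stimulated library (-1.75, adjusted p = 0.0777). In calcineurin and NFAT signalling 2 of 22 differed, with opposite signs, against 5.24% of all tested genes. RCAN1, an inhibitor of calcineurin, fell from 10.3 and 9.53 TPM to 2.81 and 2.67 TPM in Jurkat and was at 1.61, 1.63, 3.99 and 1.73 TPM in BJAB (difference -2.04, adjusted p = 0.0127). This call ended without the first Jurkat control, the second stimulated Jurkat library or the second BJAB control, at adjusted p of 0.0513 to 0.0562. The other, NFATC2, passed narrowly (2.07, adjusted p = 0.0451) and did not pass when any single library but the second stimulated BJAB library was left out, at adjusted p of 0.0848 to 0.163. Ribosome biogenesis genes had 3 of 47 members with the higher response in BJAB and none in Jurkat (1.48% and 3.76% of all tested genes). The differences of the 3 lay between -1.27 and -1.19. Each of the 3, NIP7, WDR43 and WDR3, lost its call when other single libraries were left out, for NIP7 at adjusted p of 0.0557 to 0.124. WDR43 alone passed without the first stimulated BJAB library, with WDR3 at an adjusted p of 0.083.

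**Figure D5:**
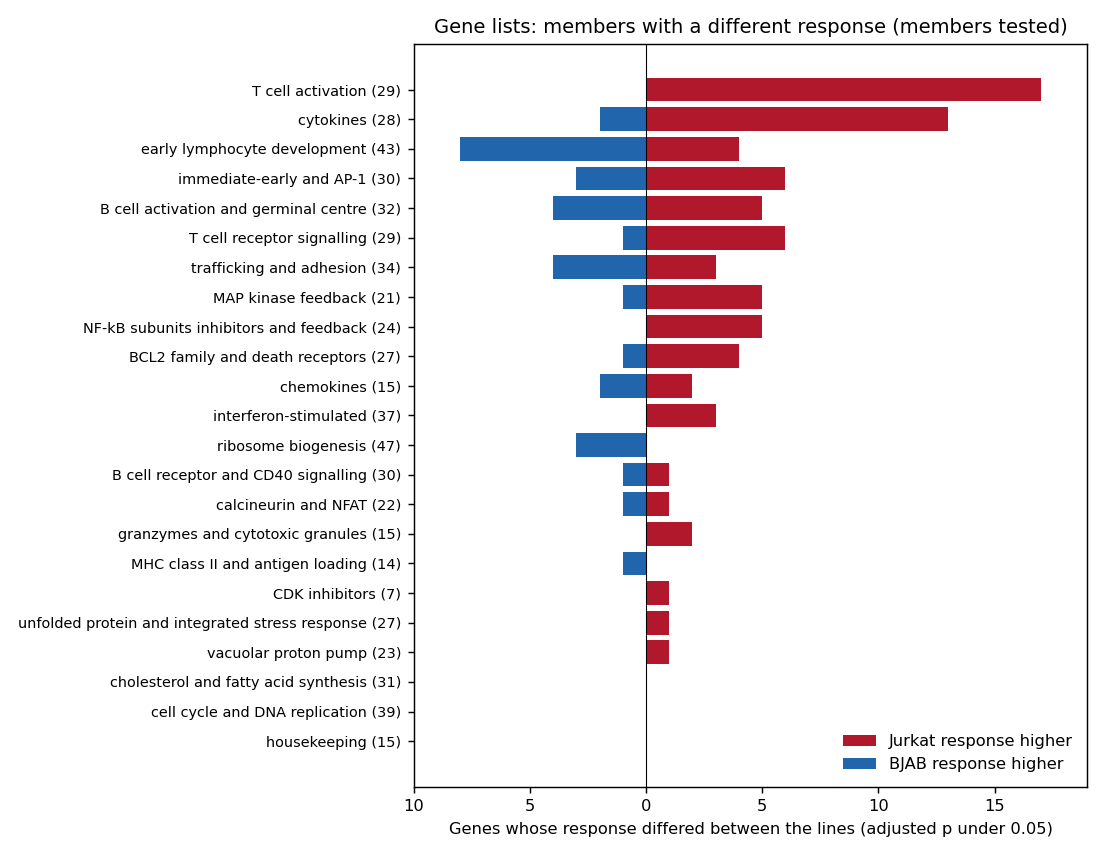
Number of genes per list whose response differed between the lines at an adjusted p under 0.05, to the right where the Jurkat response was higher and to the left where the BJAB response was higher, with the number of members tested in brackets. T cell activation (17 of 29) and cytokines (13 and 2 of 28) lead, and 3 of the lists drawn have no differing member.

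None of 39 tested cell cycle and DNA replication genes, 31 cholesterol and fatty acid synthesis genes or 15 housekeeping genes differed in the reported limma fit, where 5.24% of all tested genes did, a share at which lists of this size hold few genes. At an unadjusted p under 0.05 there were 2, 12 and 1 in the same order, against 2399 of all 14398 tested genes. For cholesterol and fatty acid synthesis this depended on the scaling: 5 members had a higher BJAB response after median-of-ratios scaling, 4 after quantile normalization, 1 by voom and 1 without the first stimulated BJAB library. By voom none of the cell cycle or housekeeping genes differed. EBP, a sterol isomerase, was at 491 and 442 TPM in untreated and 307 and 330 TPM in stimulated Jurkat, and at 477, 398, 1290 and 439 TPM in BJAB, where only the first stimulated library was high (difference -1.34 ± 0.58 SE, adjusted p = 0.273). CCNB1, a mitotic cyclin, was at 618 and 561 TPM before and 573 and 641 TPM after in Jurkat, and at 562, 489, 1130 and 634 TPM in BJAB (difference -0.65 ± 0.36 SE, adjusted p = 0.404). GAPDH was at 5830, 5810, 5700 and 5120 TPM in Jurkat and at 6060, 6450, 1550 and 5230 TPM in BJAB (difference 1.03 ± 0.57 SE, adjusted p = 0.41), so the low level of the first stimulated BJAB library reached housekeeping genes as well.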

How the data were processed

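Per the labels, SmartSeq2 libraries primed with oligo-dT were sequenced. The submitters' processing notes name TopHat2 and hg19; the sources used here do not give the counting program, its use of strand, the annotation or any version. The authors deposited 1 table per library with TPM for 27311 gene symbols; each sums to 1000000. Whole reads were recovered from the TPM steps for 93.5% of the 19092 genes above 0 (tolerance 0.001), giving 3317689 to 8432224 reads per library over all 16 and 6268819 to 8170899 in the 8 compared. The lowest, in a stimulated THP-1 library, is the smallest total that its steps allow; PCR reads are not independent molecules.

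Genes reaching 1 TPM in 2 or more libraries (14398) entered a limma fit (version 3.58.1, R 4.3.3) on log2(TPM + 1), over all 16 libraries in 8 groups of 2, with the spread trended on level. The 8 libraries of the other lines help to estimate the spread (8 residual degrees of freedom, prior 3.18) and also count in the filter. Genes that only those lines express can thus be among the 14398, and so enter the adjustment and the shares of all tested genes. Since the spread is pooled, SEs of BJAB responses may be too small. Where the libraries of any pair lie far apart, as in stimulated BJAB, the SE of the Jurkat response is widened. Pairs of the other lines count here too. The array weight, which is lower for a more variable pair, was 0.166 in stimulated U937 and 0.206 in stimulated BJAB. A Jurkat response can then stay uncalled, which also bears on the BJAB-only classes. Tests were two-sided, Benjamini-Hochberg adjusted, threshold 0.05. Changes of genes with low levels are understated on this scale, and where a group is listed at 0 the difference is set partly by the pseudocount and gives no bound. The fit was tested on simulated data.

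The classes, the 25 gene lists (24 with tested members), the markers and the rule for named genes were chosen with earlier results of these data known. The rule took, among genes with a mean of at least 5 TPM in 1 group and no small RNA, the 10 largest Jurkat-only rises (5 of them detected in BJAB), 8 largest falls, 8 largest BJAB-only rises and falls, and 8 opposite genes each way. It added up to 4 called members of every list, failing which the 2 most abundant, and receptor genes. Alternatives were pseudocounts of 0.1 and 5, no filter, a TPM minimum of 5, median-of-ratios and quantile scaling, only the Jurkat and BJAB libraries, array weights, no trend, a replicate block, a flat limit of 0.5, and each library left out. Voom on recovered reads, transcript GC (GENCODE v29, 96.2% of tested genes matched), counts of the order of levels, and the promoter motifs were added after seeing the data. A first comparison of motif shares between gene sets was dropped, because too few tested genes had a promoter window. Some genes and 1 gene list are not reported here.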

Additional observations from a re-analysis of the deposited data

Results flagged for a closer look

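The response to stimulation differed between the lines, by the test of the difference itself, for 541 genes with the higher response in Jurkat and for 213 genes with the higher response in BJAB. The lines received different agents, so these counts describe a line together with its stimulus. Groups of 2 libraries are too small to look for single outlying samples.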

How the results depend on the processing

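Counts are given in the order all differing genes, Jurkat higher and BJAB higher (754, 541 and 213 as reported), then Jurkat only rose and fell (204 and 100), BJAB only rose and fell (82 and 202), and opposite with Jurkat up and with BJAB up (134 and 34); those not given lay within 1.5 times the reported count. With a pseudocount of 0.1 they were 454, 335 and 119 differing genes, 117 and 33 Jurkat-only, 49 and 80 BJAB-only. With a pseudocount of 5 the Jurkat-only falls were 171 and the opposite genes 89 and 14. A TPM minimum of 5, which leaves fewer genes, gave 130 Jurkat-only rises and 134 BJAB-only falls. Median-of-ratios scaling gave 135 BJAB-only rises and 55 opposite genes up in BJAB, and quantile normalization gave 327 differences with BJAB higher, 152 BJAB-only rises and 85 opposite genes up in BJAB. With the Jurkat and BJAB libraries only, BJAB-only falls were 103 and opposite genes 67 and 18. Array weights gave 118 differences with BJAB higher, 30 Jurkat-only falls and 43 and 84 BJAB-only genes. Voom on recovered reads, chosen after seeing the data and run for the differences only, gave 115 with BJAB higher. No filter, no trend and a flat limit of 0.5 kept every count within 1.5 times. The cause of these shifts was not tested.

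Replicate numbers are shared by control and stimulated libraries, but no label says what they mark, and the deviations of same-numbered libraries correlated at 0.0174 in Jurkat and 0.142 in BJAB. A fit with the replicate number as a block gave 504 differing genes, of which 131 had BJAB higher, 55 Jurkat-only falls, 53 and 129 BJAB-only genes and 80 opposite genes up in Jurkat.

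Leaving out each library in turn gave 485 to 2970 differing genes, 360 to 2323 with Jurkat higher and 125 to 647 with BJAB higher. Jurkat-only rises ranged from 167 to 268 and falls from 57 to 131, BJAB-only rises from 49 to 436 and falls from 111 to 1724, and opposite genes from 72 to 417 up in Jurkat and 18 to 91 up in BJAB. The highest values came without the second stimulated BJAB library, which leaves that group with 1 library, assumed to vary like the others.

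Of 103 named genes tested 89 passed, and 44 of these passed in every alternative. Over 1691 combinations of gene and alternative 183 lost the call and none changed sign. The most were lost with the Jurkat and BJAB libraries only (26, among them RELB, NR4A1, IL21R, GDF15, GADD45B, RGCC and SOX11) and with a pseudocount of 0.1 (19, among them CXCL3, CCL1, CCR7, EGR2, SOCS1 and SPRY4). Leaving out single libraries lost 0 to 16 each, the replicate block 15, voom 12, array weights 10 and each other alternative at most 4.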
